A study of Caenorhabditis elegans with 12 samples.

Results

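The genes described here are the *flp* genes of *C. elegans*, which encode precursors of FMRFamide-like peptides (FLPs). Members were the genes of the count table whose WormBase name begins with *flp-* and that had at least 1 CPM (its count scaled to the library total in the usual way) in 3 libraries. Of 31 *flp* genes listed, 30 met this rule, among 13368 of all 45836 listed genes. Close to the threshold stood *flp-32*, which lay under 1 CPM in N2 replicate 1 and *nhr-62* replicate 1 (0.894 CPM in each) and above it in the other 10 libraries, whereas the other 29 members passed in all 12 libraries. No member therefore owed its place to the *eat-2* genotypes alone. Outside the rule stood *flp-23*, with 0 of 348035256 counts over all libraries, which allows at most 0.00862 CPM.

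Messenger RNA was sequenced from whole animals at day 0 of adulthood, before they bore eggs, grown at 20 °C on OP50 bacteria. The groups were *nhr-62;eat-2* double mutants, *eat-2(ad465)*, *nhr-62(tm1818)* and wild-type (N2), with 3 biological replicates each, all synchronized by bleaching and picked by hand. The allele *eat-2(ad465)* impairs a nicotinic receptor subunit of the pharynx and lowers food intake, and serves as a genetic model of dietary restriction (DR). The allele *nhr-62(tm1818)* removes part of a nuclear hormone receptor gene, including the part for the DNA-binding domain, and a shorter predicted isoform may persist. Comparing the genotypes asks which transcripts differ under DR and whether *nhr-62* is needed for these differences. The deposited values are whole-number read counts per gene, divided here by library size with TMM scaling and brought to a common size (normalized counts). By edgeR's quasi-likelihood test, a gene was called higher or lower at a Benjamini-Hochberg adjusted p under 0.05 with a fold change above 1.5 and, over the genotypes compared, more than 10 normalized counts on average. A value after ± is the standard error of a log2 fold change.

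FLPs are short neuropeptides that end in an amidated arginine and phenylalanine. They are cut from larger precursors, amidated, packed into dense core vesicles and released from neurons, and most act through G protein-coupled receptors on neurons, muscle or intestine. In nematodes they form a large peptide family, with roles in locomotion, feeding state, fat, sleep and egg laying. Most *flp* genes are expressed in small sets of neurons, so that a whole-animal library sums over many different cells.

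Total counts per library ran from 18260311 to 44753083, and the *flp* genes together had 5354 to 11081 counts. Single members had far fewer, down to 26 counts for *flp-32* in N2 replicate 1. Counting error is therefore part of the spread between replicates. The transcript of *nhr-62* averaged 102 normalized counts in *nhr-62;eat-2*, 148 in *eat-2*, 134 in *nhr-62* and 156 in N2, and that of *eat-2* averaged 3.2, 4.0, 11.2 and 14.5 in the same order. Neither allele takes away the whole gene, so that these values check the labels only weakly. Yolk protein genes took 3.91% to 5.22% of the counts in *nhr-62;eat-2*, 2.51% to 3.03% in *eat-2*, 6.13% to 6.57% in *nhr-62* and 6.18% to 6.80% in N2. The scaling shifts all genes together: in *eat-2* against N2 the median log2 fold change of the tested genes was 0.28 with total-count scaling and 0.06 with TMM.

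As a family, the *flp* genes were highest in *eat-2*, intermediate in *nhr-62;eat-2* and lowest in *nhr-62* and N2, which overlapped. The normalized counts of the 30 members summed to 8509, 8435 and 8966 in *nhr-62;eat-2*, 10684, 10462 and 10226 in *eat-2*, 5776, 6063 and 6043 in *nhr-62*, and 6038, 5980 and 5844 in N2 (replicates 1, 2 and 3 of each, the order used throughout). No library of *nhr-62;eat-2* or *eat-2* came near those of *nhr-62* or N2, and the 3 *nhr-62;eat-2* libraries all lay below the 3 *eat-2* libraries. The mean sum was 1.76 times that of N2 in *eat-2* and 1.45 times that of N2 in *nhr-62;eat-2*. In CPM, where yolk and other abundant transcripts weigh on the scale, the family took 294 to 323 in *nhr-62;eat-2*, 384 to 413 in *eat-2*, 185 to 205 in *nhr-62* and 189 to 197 in N2.

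**Figure D1:**
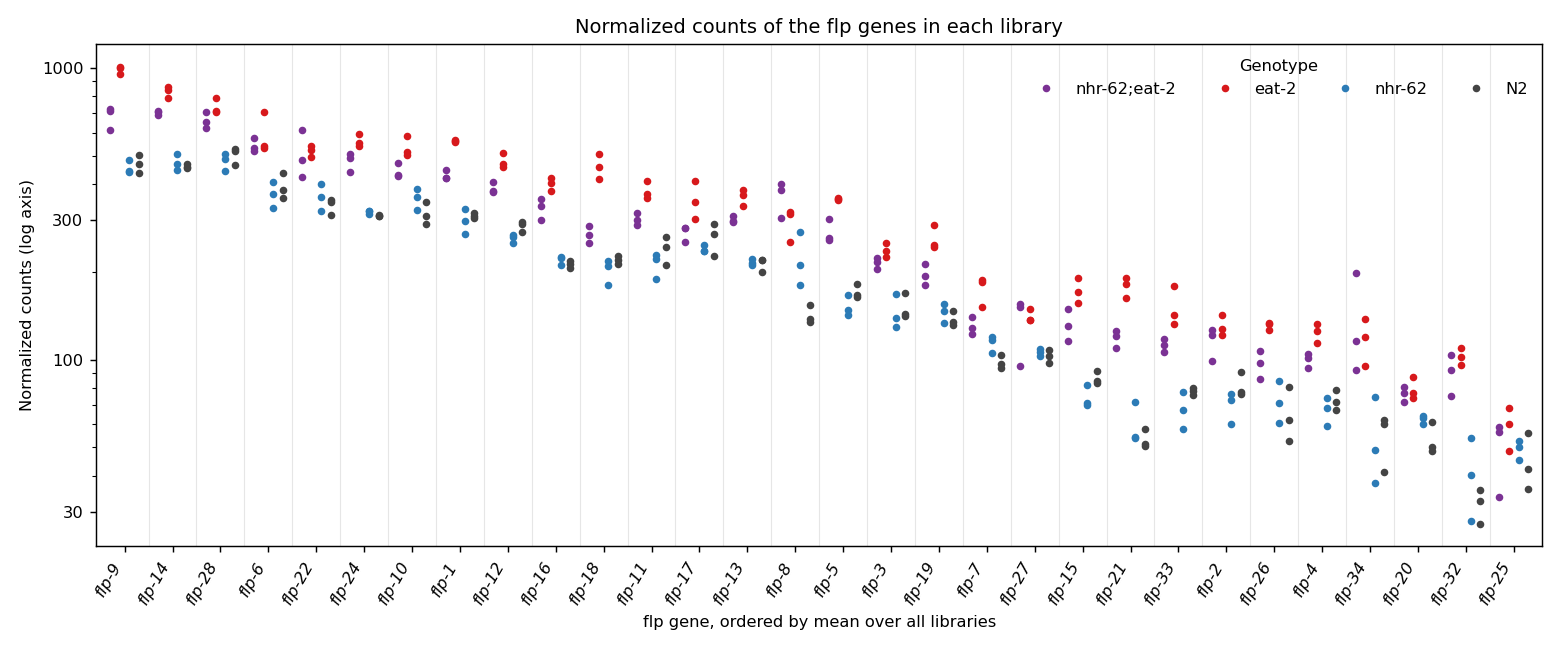
Normalized counts (log axis) of the 30 *flp* genes in each of the 12 libraries, with genes ordered along the horizontal axis by their mean over all libraries and each point 1 library, coloured by genotype. From *flp-9* at 436.6 to 1008 down to *flp-25* at 33.7 to 68.0 normalized counts, the *eat-2* points sat above the N2 points without overlap for every gene but *flp-25*.

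The levels of the members differed far more than any member differed between genotypes. Per kilobase of exon, with lengths from the WBcel235 annotation, the most abundant members in N2 were *flp-14* at 962 normalized counts per kilobase, *flp-28* at 919 and *flp-9* at 741, and the lowest was *flp-25* at 69.4. In N2, *flp-14* and *flp-28* could not be ordered, since their libraries overlapped, whereas *flp-28* lay above *flp-9* in every library. Of the 29 pairs of neighbours in this order, 23 overlapped between their libraries in the same way. The order changed little between genotypes: *flp-14* ranked first per kilobase in all of them, and *flp-9* had rank 3 in *nhr-62;eat-2*, 2 in *eat-2*, 4 in *nhr-62* and 3 in N2. The 4 members with most counts, *flp-9*, *flp-14*, *flp-28* and *flp-6*, took 29.9% of the family's counts in *nhr-62;eat-2*, 30.1% in *eat-2*, 29.8% in *nhr-62* and 30.6% in N2. Shares of single members moved more, and *flp-21* took 1.37% in *nhr-62;eat-2*, 1.70% in *eat-2*, 1.01% in *nhr-62* and 0.89% in N2.

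Replicates were close for this family. The median coefficient of variation over the members was 6.9% in *nhr-62;eat-2*, 7.3% in *eat-2*, 8.6% in *nhr-62* and 6.9% in N2. Over the 5612 genes within the same range of mean levels it was 12.7%, 12.9%, 10.5% and 13.7% in the same order. The exception was *flp-34*, whose coefficient was the largest of the family in *nhr-62;eat-2* (41.2%), *eat-2* (17.9%) and *nhr-62* (35.2%), while *flp-25* had the largest in N2 (22.7%).

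In *eat-2* against N2, which asks what differs in this genetic model of DR, 25 of the 30 *flp* genes were higher and none was lower. Of all 15344 tested genes, 23.9% were called higher and 3.61% lower. All 30 log2 fold changes were above 0, from 0.40 to 1.74 with a median of 0.84, beside a median of 0.06 over all tested genes. In 29 members all *eat-2* libraries lay above all N2 libraries, against 33.2% of all tested genes. The 5 members not called were *flp-17*, *flp-20*, *flp-25*, *flp-27* and *flp-28*, of which all but *flp-25* missed on fold change alone. An adjusted p under 0.05 with a higher level was thus reached by 29 members, against 29.9% of all tested genes.

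The largest change was that of *flp-21*, which encodes a ligand of the receptor NPR-1 and acts in food-dependent social behaviour. It had 125, 109 and 120.3 normalized counts in *nhr-62;eat-2*, 162, 181 and 189.8 in *eat-2*, 54.4, 71.7 and 53.7 in *nhr-62* and 50.6, 57.9 and 51.3 in N2. None of the *eat-2* libraries overlapped with any other genotype, and the *nhr-62;eat-2* libraries formed a level of their own between *eat-2* and the pair of *nhr-62* and N2. Its level in *eat-2* was 3.33 times that in N2 (log2 fold change 1.74 ± 0.16, adjusted p = 3.36e-05 by edgeR). Next in size was *flp-32*, singled out here after its values were seen, with 92.2, 103.9 and 75 normalized counts in *nhr-62;eat-2*, 96.1, 109.5 and 102 in *eat-2*, 27.9, 40.3 and 53.7 in *nhr-62* and 27.4, 35.8 and 32.7 in N2. Its *nhr-62;eat-2* and *eat-2* libraries overlapped each other and lay above all *nhr-62* and N2 libraries, with a log2 fold change of 1.68 ± 0.24 in *eat-2* against N2 (adjusted p = 0.000371).

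The strongest evidence of a difference, by p-value, belonged to *flp-9*, an abundant member that lies on chromosome IV beside the innexin gene *inx-6*. It had 724, 612 and 714 normalized counts in *nhr-62;eat-2*, 1008, 999.8 and 955 in *eat-2*, 482, 439 and 444 in *nhr-62* and 504, 467 and 437 in N2. All *eat-2* libraries lay above those of *nhr-62;eat-2*, and these above those of *nhr-62* and N2, which overlapped. The log2 fold change was 1.07 ± 0.09 (adjusted p = 1.48e-05 by edgeR) in *eat-2* against N2. The most abundant member per kilobase, *flp-14*, had 689, 709 and 705 normalized counts in *nhr-62;eat-2*, 837, 856 and 788 in *eat-2*, 466, 507 and 445 in *nhr-62* and 456, 468 and 452 in N2. Its replicates were tight in all genotypes and formed 3 levels, the lowest shared by *nhr-62* and N2, with a log2 fold change of 0.85 ± 0.08 (adjusted p = 2.54e-05 by edgeR) in *eat-2* against N2.

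*flp-5*, which is known to act on the pharynx, had 303, 257 and 261 normalized counts in *nhr-62;eat-2*, 358, 352 and 356 in *eat-2*, 147, 142.4 and 166 in *nhr-62* and 181, 163 and 166 in N2. The 3 *eat-2* libraries were nearly equal and lay above every other library, and the log2 fold change against N2 was 1.06 ± 0.11 (adjusted p = 7.82e-05 by edgeR). *flp-1*, known for its role in locomotion and expressed in the AVK interneurons, had 419, 418 and 447 normalized counts in *nhr-62;eat-2*, 559, 564 and 559 in *eat-2*, 270.1, 299 and 328 in *nhr-62* and 317, 306 and 311 in N2. Again *eat-2* stood highest and *nhr-62;eat-2* between, and *flp-1* rose by 0.85 on the log2 scale in *eat-2* against N2 (standard error 0.09, adjusted p = 8.07e-05).

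As in the whole family (25 of 30 called higher), the 5 members with known roles in sleep and arousal moved in the same direction. Of these 5, *flp-11* (the sleep peptide of the RIS neuron), *flp-13* and *flp-24* (both of the ALA neuron, for sleep after stress) and the arousal gene *flp-2* were higher in *eat-2* than in N2, and *flp-20* was not called, with log2 fold changes from 0.57 to 0.85. *flp-24* had 508, 439.6 and 493 normalized counts in *nhr-62;eat-2*, 540.3, 550.4 and 594 in *eat-2*, 322, 323 and 314 in *nhr-62* and 314, 310.5 and 311 in N2. Neither the *nhr-62* nor the N2 libraries varied by more than a few percent, and both lay far below *nhr-62;eat-2* and *eat-2* (*eat-2* against N2 0.85 ± 0.09, adjusted p = 5.88e-05 by edgeR).

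Like 25 of the 30 members, all 3 tied to food, fat and aggregation were higher in *eat-2* than in N2. The log2 fold change was 0.83 ± 0.14 for *flp-7*, whose peptide drives fat loss from the intestine, and 1.74 ± 0.16 for *flp-21*. It was 1.06 ± 0.11 for *flp-18*, whose peptides act through NPR-1, NPR-4 and NPR-5 in foraging and fat storage. The egg-laying inhibitors, which both act through the receptor EGL-6, gave different calls. *flp-10* was higher at 0.75 ± 0.11 (adjusted p = 0.000345 by edgeR), while *flp-17*, made in the carbon dioxide sensing BAG neurons, was not called at 0.43 ± 0.13 (adjusted p = 0.0174 by edgeR). The values of *flp-17* were 253, 282 and 283 normalized counts in *nhr-62;eat-2*, 410.1, 304 and 346 in *eat-2*, 236, 247 and 234.9 in *nhr-62* and 269, 292 and 227 in N2. All *eat-2* libraries of *flp-17* lay above those of N2, whereas *nhr-62;eat-2* and *nhr-62* overlapped with N2.

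The smallest differences were those of *flp-25*, *flp-17*, *flp-27* and *flp-28*. *flp-25* had 56.3, 58.9 and 33.7 normalized counts in *nhr-62;eat-2*, 48.7, 68 and 59.9 in *eat-2*, 52.4, 50.1 and 45.1 in *nhr-62* and 42.2, 55.8 and 36 in N2. These ranges overlapped between all genotypes, and the log2 fold change in *eat-2* against N2 was 0.40 ± 0.25 (adjusted p = 0.189 by edgeR). *flp-27* had 95.4, 151 and 155 normalized counts in *nhr-62;eat-2*, 136, 149 and 136 in *eat-2*, 103, 109 and 106 in *nhr-62* and 97, 103 and 108 in N2, with 0.45 ± 0.18 (adjusted p = 0.0462 by edgeR) in *eat-2* against N2. Replicate 1 of *nhr-62;eat-2* lay apart from the other two of its genotype and below all N2 libraries. *flp-28* had 650.3, 624 and 703 normalized counts in *nhr-62;eat-2*, 712, 790.2 and 707 in *eat-2*, 486, 444 and 505 in *nhr-62* and 526, 464 and 518 in N2. Its *eat-2* libraries began just above the highest of *nhr-62;eat-2*, and its log2 fold change of 0.55 ± 0.09 (adjusted p = 0.000709 by edgeR) missed the fold threshold in *eat-2* against N2. *flp-4*, among the least abundant members per kilobase, had 105, 93.8 and 101 normalized counts in *nhr-62;eat-2*, 125, 132 and 114 in *eat-2*, 59.3, 73.7 and 68.4 in *nhr-62* and 71.7, 67.4 and 78.6 in N2 and passed the thresholds at 0.77 ± 0.15 (adjusted p = 0.00181 by edgeR).

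*flp-8* and *flp-34*, whose libraries are given with the other comparisons, were higher in *eat-2* than in N2 at 1.06 ± 0.17 and 1.10 ± 0.32. The 9 remaining members, *flp-3*, *flp-6*, *flp-12*, *flp-15*, *flp-16*, *flp-19*, *flp-22*, *flp-26* and *flp-33*, were all higher in *eat-2* than in N2, with log2 fold changes from 0.59 ± 0.13 for *flp-6* to 1.0 ± 0.19 for *flp-26*. *flp-6*, which is expressed in thermosensory AFD neurons and known to act on lifespan at warm temperature, had 574, 531 and 517 normalized counts in *nhr-62;eat-2*, 707, 529.6 and 538 in *eat-2*, 405, 330.1 and 369 in *nhr-62* and 437, 357 and 379.8 in N2. Replicate 1 of *eat-2* lay far above the other libraries, and the lowest *eat-2* library still lay above the highest of N2. *flp-6* and *flp-22* lay just past the fold threshold and were not called by DESeq2's test. *flp-12*, another gene known for male turning behaviour, had 377, 376 and 407 normalized counts in *nhr-62;eat-2*, 509, 468 and 458 in *eat-2*, 251, 263 and 268 in *nhr-62* and 273, 292 and 296 in N2. Its genotypes formed 3 levels, with *eat-2* on top and *nhr-62* and N2 at the bottom, where all *nhr-62* libraries lay below those of N2 (-0.14 ± 0.09, adjusted p = 1.0 by edgeR in *nhr-62* against N2).

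The number of calls depends on the fold threshold and the scaling. Tested against a fold change of 1.5 rather than against 0, 14 members were higher in *eat-2* than in N2, and with libraries scaled to a list of synaptic genes 16 were higher, with all 30 log2 fold changes above 0 in both. Over all 15344 tested genes, calls in either direction went from 4228 to 1850 in the first of these settings and to 4373 in the second. Of single libraries, leaving out N2 replicate 3 lost the calls of *flp-6*, *flp-11* and *flp-22*, and leaving out N2 replicate 2 or *eat-2* replicate 1 lost that of *flp-6*.

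**Figure D2:**
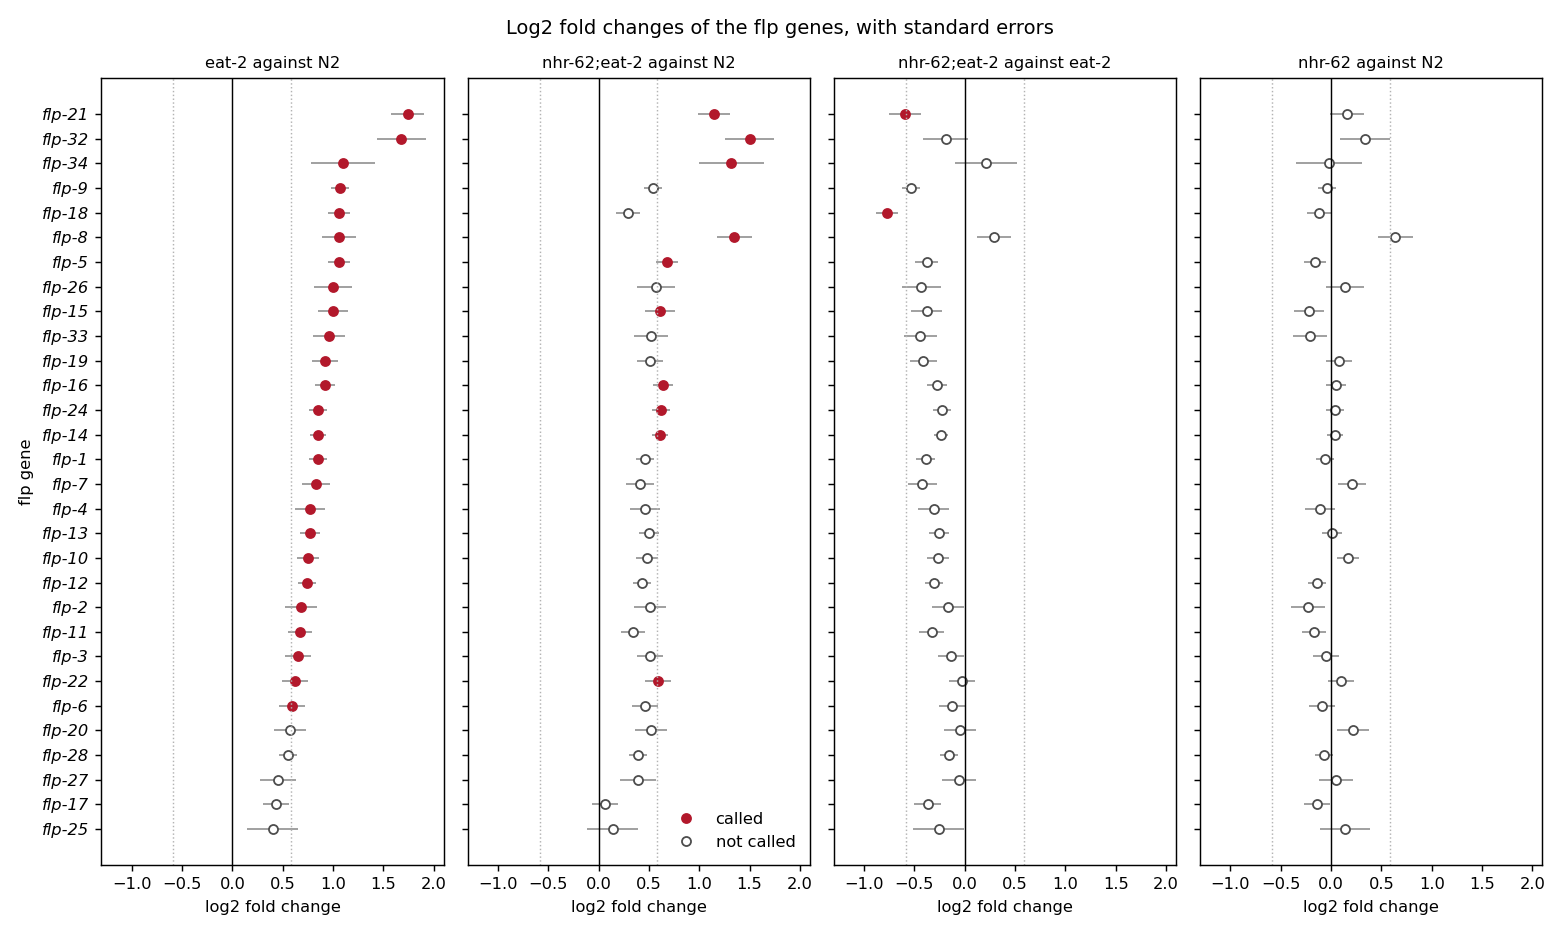
Log2 fold change of each of the 30 *flp* genes (points, with standard errors as bars) in 4 comparisons, with genes from top to bottom in the order of *eat-2* against N2, filled points called by the thresholds and dotted lines at a fold change of 1.5. In *eat-2* against N2 all points lie from 0.40 to 1.74, in *nhr-62;eat-2* against N2 from 0.06 to 1.5, in *nhr-62;eat-2* against *eat-2* from -0.77 to 0.29 and in *nhr-62* against N2 from -0.23 to 0.64.

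The *nhr-62* mutation alone left no mark that passed the test. In *nhr-62* against N2, 0 members were called, beside 0.104% of all tested genes, and 15 log2 fold changes lay on each side of 0. By edgeR 1 member had an unadjusted p under 0.05, where 3.19% of all tested genes did, and DESeq2 called 0. This 1 member was *flp-8*, also known for male turning behaviour, with 305, 399 and 380.0 normalized counts in *nhr-62;eat-2*, 253, 314 and 321 in *eat-2*, 181, 274 and 211 in *nhr-62* and 135, 154 and 138 in N2. Its *nhr-62* libraries all lay above those of N2, and its *nhr-62;eat-2* libraries reached above those of *eat-2*. The log2 fold change was 0.64 ± 0.17 (adjusted p = 0.861 by edgeR) in *nhr-62* against N2. The exons of *flp-8* overlap a non-coding RNA gene on the opposite strand, F31F6.11, so that its counts may hold reads of both. *flp-10*, next by p-value, had 472, 425 and 429 normalized counts in *nhr-62;eat-2*, 514, 585 and 502 in *eat-2*, 385, 362 and 327 in *nhr-62* and 348, 293 and 310.0 in N2. These *nhr-62* and N2 libraries overlapped, at a log2 fold change of 0.17 ± 0.11 (adjusted p = 1.0 by edgeR).

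In *nhr-62;eat-2* against N2, which asks how much of the change remains with the *nhr-62(tm1818)* allele, 10 members were higher and 0 lower. Of all tested genes, 5.25% were called higher and 1.38% lower. Those called were *flp-5*, *flp-8*, *flp-14*, *flp-15*, *flp-16*, *flp-21*, *flp-22*, *flp-24*, *flp-32* and *flp-34*. The median log2 fold change of the members was 0.51, from 0.06 for *flp-17* to 1.5 for *flp-32*, with 0.02 over all tested genes. All *nhr-62;eat-2* libraries lay above all N2 libraries in 27 members, against 18% of all tested genes. By p-value *flp-14* came first (0.61 ± 0.08, adjusted p = 0.000558 by edgeR) and *flp-8* second (1.35 ± 0.17, adjusted p = 0.000639 by edgeR). The call of *flp-34* was lost without N2 replicate 1, N2 replicate 3 or *nhr-62;eat-2* replicate 3, that of *flp-15* without N2 replicate 3, *nhr-62;eat-2* replicate 2 or *nhr-62;eat-2* replicate 3, that of *flp-22* without N2 replicate 3 or *nhr-62;eat-2* replicate 3 and by DESeq2's test, and that of *flp-24* without *nhr-62;eat-2* replicate 1. The scaling to synaptic genes left 4 members called, while a test against a fold change of 1.5 left 3. Calls over all genes also fell in the test against 1.5-fold, as given further below, and those with synaptic scaling are not given here.

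In *nhr-62;eat-2* against *nhr-62*, the same step of feeding mutation in the other background, 9 members were higher and 0 lower, where 9.46% of all tested genes were called higher and 1.41% lower. They were *flp-2*, *flp-5*, *flp-8*, *flp-15*, *flp-16*, *flp-21*, *flp-32*, *flp-33* and *flp-34*, and the median over the members was 0.56 beside 0.03 over all tested genes. In 28 members the libraries did not overlap, against 26.1% of all tested genes. Among those without a call, *flp-25* stood at 0.00 ± 0.25 and *flp-14* at 0.57 ± 0.07 (adjusted p = 0.000744 by edgeR), just short of the fold threshold. Tested against a fold change of 1.5, no member was called here, and calls over all genes also fell, as given further below. Leaving out *nhr-62* replicate 1 lost the calls of *flp-8*, *flp-16*, *flp-33* and *flp-34*, that of *flp-34* was also lost without *nhr-62* replicate 2 or *nhr-62;eat-2* replicate 3, and that of *flp-16* without N2 replicate 1, *nhr-62;eat-2* replicate 1 or *nhr-62;eat-2* replicate 3.

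Between the genotypes that both carry *eat-2(ad465)*, 2 members were lower in *nhr-62;eat-2* than in *eat-2* and 0 were higher, where 4.66% of all tested genes were called lower and 0.782% higher. The share of members called was thus close to that of all tested genes. The direction was broader than the calls: 28 log2 fold changes were below 0, with a median of -0.28 beside -0.03 over all tested genes. In 21 members all *nhr-62;eat-2* libraries lay below all *eat-2* libraries, against 21.8% of all tested genes. An adjusted p under 0.05 was reached by 6 members, all lower in *nhr-62;eat-2*, against 6.1% of all tested genes in that direction.

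The clearest of these was *flp-18*, with 252, 286 and 267 normalized counts in *nhr-62;eat-2*, 505, 416 and 456 in *eat-2*, 179, 209 and 218 in *nhr-62* and 227, 219 and 213 in N2. The *nhr-62;eat-2* libraries lay just above those of N2 and well below those of *eat-2*. *flp-18* fell to 0.59 times its *eat-2* level in *nhr-62;eat-2* (log2 fold change -0.77 ± 0.11, adjusted p = 0.00557 by edgeR), and in *nhr-62;eat-2* against N2 it was not called (0.29 ± 0.12, adjusted p = 0.12 by edgeR). *flp-21* was called lower at the edge of the thresholds (-0.59 ± 0.16, adjusted p = 0.0371 by edgeR) and was higher in *nhr-62;eat-2* than in N2 (1.15 ± 0.16, adjusted p = 0.00125 by edgeR). The call of *flp-21* was lost in 17 of 23 alternatives, among them DESeq2's test and leaving out any 1 library other than N2 replicate 2 or *eat-2* replicate 1, with log2 fold changes from -0.65 to -0.53 over all single libraries left out. Of the 4 members past the adjusted p but short of the fold threshold, *flp-9* stood at -0.53 ± 0.09 (adjusted p = 0.00835 by edgeR) and *flp-1* at -0.39 ± 0.09 (adjusted p = 0.025 by edgeR), and *flp-5* and *flp-12* had adjusted p of 0.0492 and 0.0484 by edgeR.

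In the direction opposite to the family stood *flp-8* and *flp-34*, the only members with a mean in *nhr-62;eat-2* above that in *eat-2*. *flp-34*, which acts in aversive olfactory learning, had 116, 92 and 198 normalized counts in *nhr-62;eat-2*, 119.3, 95.4 and 137 in *eat-2*, 37.7, 49.1 and 74.7 in *nhr-62* and 41.1, 62.1 and 60 in N2. Its libraries overlapped between *nhr-62;eat-2* and *eat-2*, with replicate 3 of *nhr-62;eat-2* far above the others. Against N2, *flp-34* was called higher in *nhr-62;eat-2* (1.32 ± 0.32, adjusted p = 0.0223 by edgeR) and in *eat-2* (1.10 ± 0.32, adjusted p = 0.014 by edgeR), with the largest standard errors of the family. *flp-8* differed by 0.29 ± 0.17 (adjusted p = 0.238 by edgeR) in *nhr-62;eat-2* against *eat-2*, which was not called. The other 28 members had an *nhr-62;eat-2* mean between those of *eat-2* and N2, as had 37% of all tested genes and 92.9% of those called higher in *eat-2*. In 20 members each *nhr-62;eat-2* library lay between the lowest *eat-2* and the highest N2 library, against 5.49% of all tested genes. Genes not higher in *eat-2* count in that 5.49%, and the share among genes called higher in *eat-2* was not computed.

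**Figure D3:**
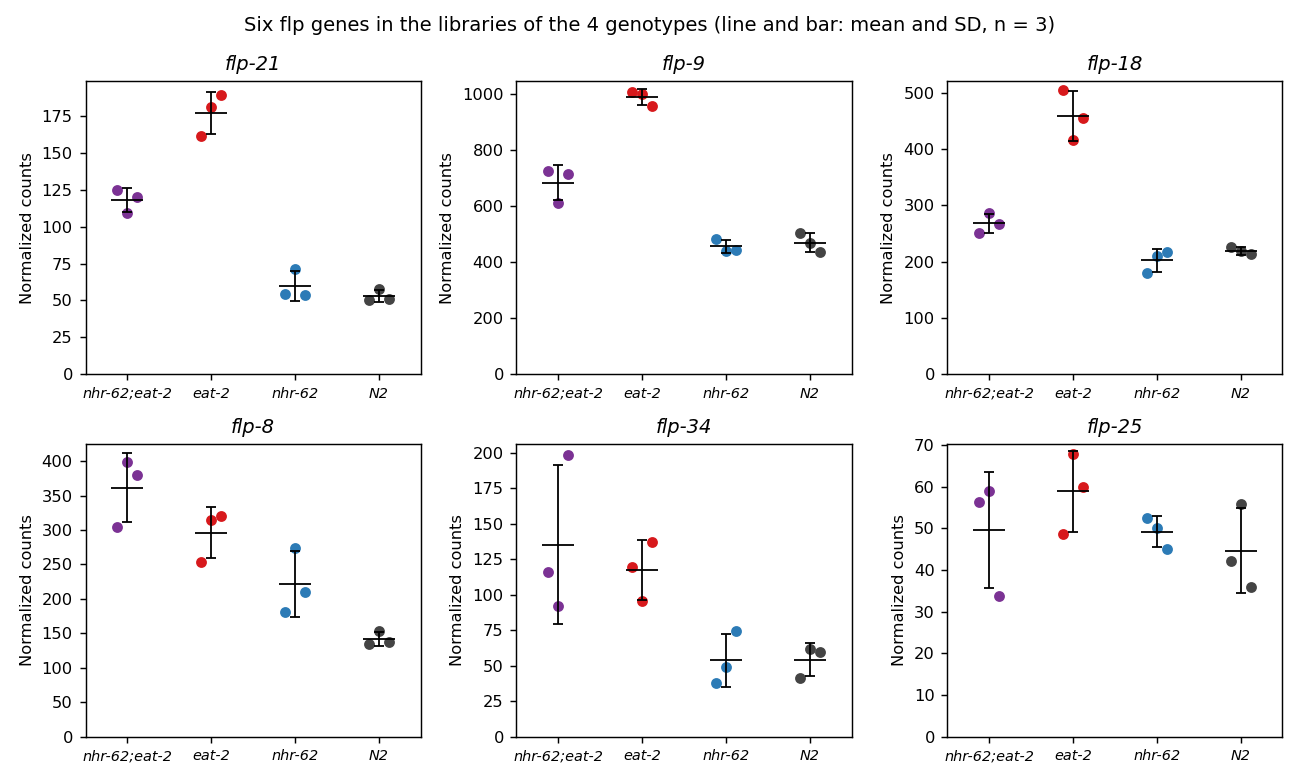
Normalized counts of *flp-21*, *flp-9*, *flp-18*, *flp-8*, *flp-34* and *flp-25* in the 3 libraries of each genotype (points), with mean and SD. *flp-21*, *flp-9* and *flp-18* peak in *eat-2* (means 178, 988 and 459) with *nhr-62;eat-2* below it (118, 683 and 268), *flp-8* and *flp-34* are not lower in *nhr-62;eat-2* (361 and 135, against 296 and 117 in *eat-2*), and *flp-25* overlaps in all genotypes.

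The difference between the 2 backgrounds was tested as an interaction, which is the change of *nhr-62;eat-2* against *nhr-62* minus that of *eat-2* against N2. No member was called, beside 0.261% of all tested genes, although 28 of 30 interaction terms were below 0 (median -0.27, with -0.03 over all tested genes). By edgeR 9 members had an unadjusted p under 0.05, where 14.3% of all tested genes did, and DESeq2 called 1, *flp-18*. The smallest p-values were those of *flp-18* (-0.65 ± 0.16, adjusted p = 0.138 by edgeR) and *flp-9* (-0.49 ± 0.12, adjusted p = 0.147 by edgeR). A smaller effect of *eat-2(ad465)* on single *flp* genes in the *nhr-62(tm1818)* background was therefore not shown by this test.

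Receptors of FLPs moved less uniformly than the peptides. Of 15 tested, 6 were higher in *eat-2* than in N2 (*npr-22*, *frpr-18*, *dmsr-7*, *npr-10*, *npr-6* and *npr-3*), where 23.9% of all tested genes were called higher. *egl-6* was lower, and *npr-4*, *npr-5*, *npr-11*, *frpr-3*, *frpr-4*, *frpr-8*, *frpr-19* and *dmsr-1* were not called, with a median of 0.55 over the 15. *npr-22*, which encodes a receptor for FLP-7, averaged 68.0 normalized counts in *nhr-62;eat-2*, 92.6 in *eat-2*, 46.9 in *nhr-62* and 49.9 in N2, at 0.89 ± 0.21 in *eat-2* against N2 (adjusted p = 0.00514 by edgeR). *egl-6*, whose product receives FLP-10 and FLP-17, averaged 117 normalized counts in *nhr-62;eat-2*, 79.8 in *eat-2*, 158 in *nhr-62* and 141.9 in N2. It was thus lower in *eat-2* than in N2 (-0.83 ± 0.17, adjusted p = 0.00271 by edgeR), while its ligand gene *flp-10* was higher. None of the 15 receptors was called in *nhr-62;eat-2* against N2 or against *eat-2*, and their medians there were 0.26 and -0.29. Few of all tested genes were called there either, with 5.25% higher and 1.38% lower against N2. Against *eat-2*, 0.782% were higher and 4.66% lower.

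Most genes of a peptide processing list rose in *eat-2*. Of 9 tested, 6 were higher than in N2 and none lower, with a median of 0.69. They included the convertase gene *egl-3* (0.69 ± 0.11), its chaperone gene *sbt-1* (0.74 ± 0.08) and the carboxypeptidase gene *egl-21* (0.71 ± 0.09). Also higher were amidation genes *pghm-1* (0.72 ± 0.07) and *pgal-1* (0.63 ± 0.08), and *kpc-1* (0.86 ± 0.13), a furin-like convertase. The others, *pamn-1* (-0.21), *aex-5* (-0.08) and *bli-4* (-0.07), were not called. In *nhr-62;eat-2* against N2, *pghm-1* and *kpc-1* were higher, where 5.25% of all tested genes were called higher. In *nhr-62;eat-2* against *eat-2* none of the 9 was called, where 0.782% of all tested genes were called higher and 4.66% lower. Of 10 dense core vesicle genes, *ida-1* (0.86 ± 0.13) and *ric-19* (0.72 ± 0.15) were higher in *eat-2* than in N2. The other 8 were not called, and the median was 0.32. Over all tested genes, 23.9% were called higher in this comparison.

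A list of synaptic and pan-neuronal genes was set beside the peptide genes, although not all of its genes are confined to neurons. Its members split in *eat-2* against N2, with 22 log2 fold changes above 0 and 12 below, from -1.04 to 1.3. The median of this list is therefore not a measure of neurons alone. Of 34 synaptic and pan-neuronal genes tested, 6 were higher in *eat-2* than in N2 (*ric-4*, *snt-1*, *rab-3*, *cho-1*, *unc-46* and *rgef-1*), where 23.9% of all tested genes were called higher. *tbh-1* was lower and 27 were not called, with a median of 0.32 over the list. The synaptotagmin gene *snt-1* averaged 323 normalized counts in *nhr-62;eat-2*, 423 in *eat-2*, 232 in *nhr-62* and 232 in N2. The summed level of this list was 43349 to 46616 in *nhr-62;eat-2*, 37758 to 41662 in *eat-2*, 47068 to 48940 in *nhr-62* and 47233 to 48900 in N2, so that its most abundant genes did not follow the *flp* genes. In whole animals, more neuronal RNA in the sample and more transcript per neuron cannot be told apart. Of the other peptide families, 38 of 65 tested *nlp* genes were higher in *eat-2* than in N2 and none lower (median 0.76), and 9 of 23 insulin-like *ins* genes were higher and 1 lower (median 0.67).

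**Figure D4:**
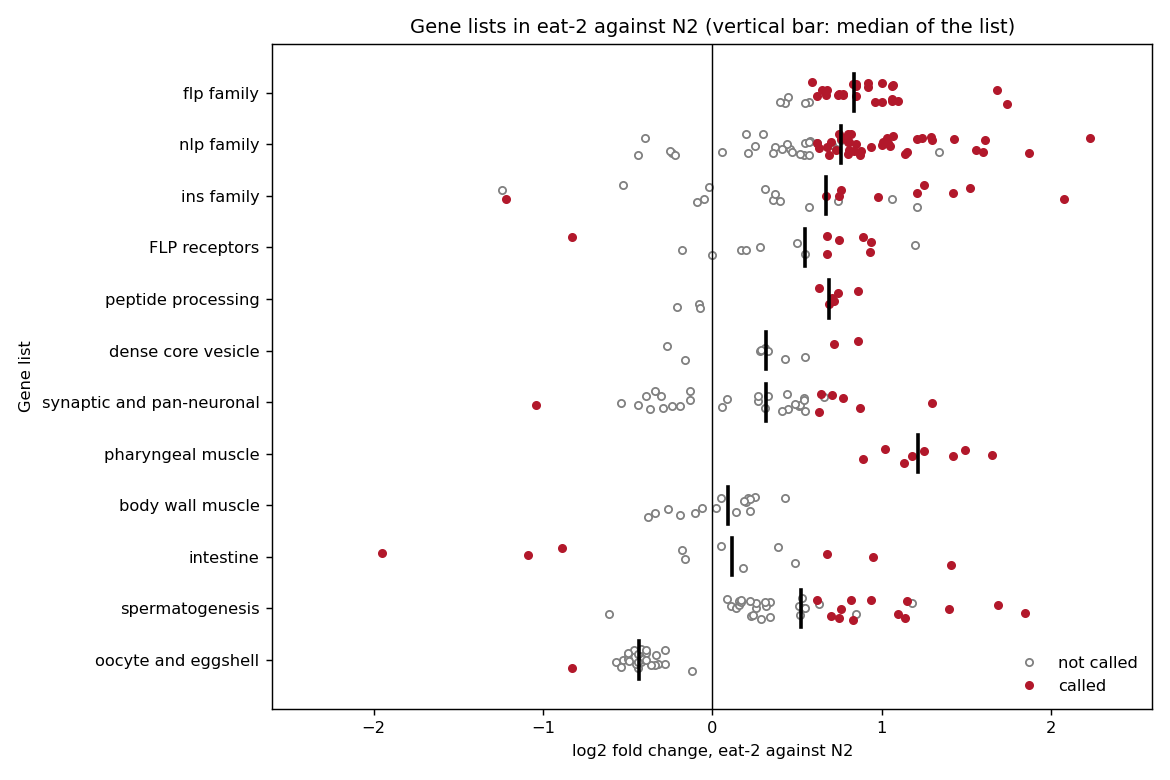
Log2 fold change of each tested gene in *eat-2* against N2 for 12 gene lists from top to bottom, with filled points called by the thresholds and a vertical bar at each list's median. The *flp* median of 0.84 lies beside 0.76 for *nlp*, 0.67 for *ins* and 0.69 for peptide processing. It lies above 0.32 for the mixed synaptic and pan-neuronal list and 0.10 for body wall muscle genes, and below 1.21 for pharyngeal muscle genes.

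Markers of other tissues also moved with *eat-2*, where 23.9% of all tested genes were called higher than in N2 and 3.61% lower. All 8 pharyngeal muscle genes were higher in *eat-2* than in N2, and their summed level was 28570 to 34703 in *nhr-62;eat-2*, 35466 to 45768 in *eat-2*, 16034 to 20822 in *nhr-62* and 16953 to 22979 in N2. Of 40 spermatogenesis genes 13 were higher and none lower, with sums of 11692 to 15213 in *nhr-62;eat-2*, 17445 to 21265 in *eat-2*, 9502 to 10344 in *nhr-62* and 7757 to 16827 in N2. Of 26 oocyte and eggshell genes 1 was lower and none higher, all 26 log2 fold changes were below 0, and sums were 524841 to 543672 in *nhr-62;eat-2*, 375186 to 427998 in *eat-2*, 561439 to 588894 in *nhr-62* and 514347 to 583814 in N2. For each of these 3 lists the *eat-2* sums lay outside the range of every other genotype. All 6 yolk protein genes were lower in *eat-2* than in N2, and of 16 body wall muscle genes none was called. No gene of these marker lists was at 0 in any genotype. Their part in the level of the *flp* genes was not tested.

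By position, 13 of the 30 members lie on the X chromosome, and 5 on chromosome IV, 4 on III, 3 each on II and V and 2 on I. Of the X-linked members 11 were higher in *eat-2* than in N2 with a median of 0.83, and of the 17 autosomal members 14 were, with a median of 0.85. Over all tested genes the X chromosome had 20.3% called higher with a median of 0.19, and the autosomes 24.6% with a median of 0.03. The members *flp-28*, *flp-3* and *flp-2* are neighbours on X, and their log2 fold changes in *eat-2* against N2 were 0.55 ± 0.09, 0.65 ± 0.13 and 0.68 ± 0.16. The sources used here do not say if counting used strand, and 5 members share exon sequence with a gene on the opposite strand: *flp-16* with *romo-1*, *flp-8* with F31F6.11, *flp-11* with *tmem-135*, *flp-19* with *abl-1* and *flp-33* with *ntr-1*. All 5 were higher in *eat-2* than in N2 (median 0.92), and without them 20 of 25 members were (median 0.77).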

How the data were processed

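Libraries were made from hand-picked animals of each genotype with an Illumina TruSeq RNA kit and sequenced as single-end reads. The authors aligned reads with TopHat 1.3, counted them per gene with HTSeq and deposited whole-number counts for 45836 genes (1 blank line was dropped). The version of HTSeq and the use of strand in counting are not given in the sources used here. Gene names, exon lengths and neighbours came from the WBcel235 annotation, where 98.5% of the 24428 genes that had counts were found. That build differs from the authors', so no coordinates or sequences are given.

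Counts were analysed with edgeR 4.0.16 in R 4.3.3: filterByExpr kept 15344 genes, TMM scaled the libraries, and 1 quasi-likelihood fit held all 12 libraries. Standard errors were the size of the log2 fold change over the square root of F. P-values, with Benjamini-Hochberg adjustment across the tested genes, weigh each difference against the spread between biological replicates. That spread was estimated for each gene over all 12 libraries together, so that all genotypes share it. Averaged over genes, 12 pairs of replicates differed by 10.2 to 60.8 times what sampling of reads gives. Abundant genes can weigh most in that average, so it does not show that counting error was small for the *flp* members.

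Alternatives were DESeq2 1.42.0 (its size factors and its test), total-count scaling, scaling to synaptic genes, other filters, the adjusted p alone, a test against a fold change of 1.5, fewer libraries and a replicate block. The *flp* members, the gene lists (193 names outside the peptide families, 3 unmatched) and the rule for named genes were chosen with earlier results of these data known. Values in every library were given for *flp-21*, for members with the smallest or largest p-values in the comparisons and for the most and least abundant per kilobase. The test was checked on simulated counts.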

Additional observations from a re-analysis of the deposited data

How the results depend on the processing

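The 23 log2 fold changes of *flp* genes followed through the alternatives kept their direction. Others near 0 did not: in *nhr-62;eat-2* against N2, where all 30 were above 0, 28 were with synaptic scaling and 29 without N2 replicate 3 or *nhr-62;eat-2* replicate 2, and in *nhr-62;eat-2* against *nhr-62* 29 were under several settings. Over the values followed, 497 stayed on their side of the thresholds, 22 lost a call and 8 gained one. For *flp* genes higher in *eat-2* than in N2 (25), the count was 14 in a test against a fold change of 1.5 and 16 with scaling to synaptic genes. For *nhr-62;eat-2* against N2 (10), it was 19 with total counts, 19 by the adjusted p alone, 4 with synaptic scaling and 3 against 1.5-fold. For *nhr-62;eat-2* against *nhr-62* (9), it was 19, 23, 5 and 0 under these settings. For *flp* genes lower in *nhr-62;eat-2* than in *eat-2* (2), it was 1 with DESeq2's size factors, DESeq2's test, synaptic scaling, no filter, only the genotypes compared, or replicates 2 and 3 only, 6 by the adjusted p alone and 0 against 1.5-fold. DESeq2's test called 1 *flp* gene lower in the interaction, where edgeR called 0.

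Over all genes, calls in *eat-2* against N2 (4228) were 8038 by the adjusted p alone and 1850 against 1.5-fold. In *nhr-62;eat-2* against N2 (1017) they were 1740 and 221, and in *nhr-62;eat-2* against *nhr-62* (1668) they were 2977 and 234, with 994 from replicates 2 and 3 only. In *nhr-62;eat-2* against *eat-2* (835) they were 1472 with total counts, 1624 by the adjusted p alone and 28 against 1.5-fold. In *nhr-62* against N2 (16) they were 7 against 1.5-fold and 10 from replicates 2 and 3, and in the interaction (40) they were 200 by DESeq2's test and 10 against 1.5-fold. The cause of these differences was not tested, beyond the stricter or looser thresholds themselves.

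Leaving out 1 library at a time gave 22 to 27 *flp* genes higher in *eat-2* than in N2, 7 to 11 in *nhr-62;eat-2* against N2, 7 to 13 in *nhr-62;eat-2* against *nhr-62*, and 1 to 2 lower in *nhr-62;eat-2* against *eat-2*. Over all genes it gave 3664 to 4447 calls in *eat-2* against N2, 558 to 1387 in *nhr-62;eat-2* against N2, 110 to 1499 in *nhr-62;eat-2* against *eat-2*, 893 to 2030 in *nhr-62;eat-2* against *nhr-62*, 9 to 18 in *nhr-62* against N2 and 13 to 46 in the interaction.

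The labels do not tie replicate numbers across genotypes. Same-numbered libraries had a correlation of their deviations over 0.1 in 7 of 18 pairs, with a range from -0.221 to 0.293. In 14 of 36 comparisons, the closest of another genotype's 3 libraries was the one with the same number. With the replicate number as a block, 25 *flp* genes were higher in *eat-2* than in N2 and 9 in *nhr-62;eat-2* against N2, and calls over all genes in *nhr-62;eat-2* against *eat-2* were 1464.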

Other observations

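Within the synaptic list, the enzymes that make tyramine and octopamine held many of the counts and ran against the *flp* genes. *tbh-1*, the tyramine beta-hydroxylase gene, averaged 4525 normalized counts in *nhr-62;eat-2*, 3171 in *eat-2*, 6364 in *nhr-62* and 6522 in N2, and was lower in *eat-2* than in N2 (-1.04 ± 0.14, adjusted p = 0.000259 by edgeR). *tdc-1*, the tyrosine decarboxylase gene upstream of it, averaged 6549, 4994, 7112 and 7275 in the same order and was not called (-0.54 ± 0.11). Both enzymes are known from gonadal sheath cells as well as from neurons. Both genes were singled out after their values were seen.

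Intestinal genes split. The intermediate filament gene *ifb-2* averaged 6004 normalized counts in *nhr-62;eat-2*, 7630 in *eat-2*, 2635 in *nhr-62* and 2863 in N2 (*eat-2* against N2 1.41 ± 0.11, adjusted p = 8.8e-06 by edgeR). The metallothionein gene *mtl-2* averaged 56.1, 54.1, 211 and 208 in the same order (-1.95 ± 0.23, adjusted p = 0.000132 by edgeR) and thus stood at about the same level in both genotypes that carry *eat-2(ad465)*. Of 12 hypodermal genes, 2 were higher and 1 lower in *eat-2* than in N2, where 23.9% of all tested genes were called higher. The cuticle collagen gene *rol-6* averaged 32.3, 98.3, 0.5 and 2.1 normalized counts in the same order. Its log2 fold change in *eat-2* against N2 had a wide error (5.43 ± 1.74, adjusted p = 0.0211 by edgeR), with almost no counts in N2.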
